A study of Mus musculus with 2 samples.

Results

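The array carries probes that are named by a stretch of genome and a strand instead of a gene. Those described here lie on the autosomes other than chromosomes 1, 8 and 11, and were chosen by their coordinate names on chromosomes 2 to 7, 9, 10 and 12 to 19. They make up 12661 probes for 2770 regions, of 16194 probes for 3543 regions on the whole array. The rule uses coordinate names alone, but it was set with earlier results of these data known. RNA of mouse embryonic stem cells (ESCs) of strain B6C3F1 at passage 26 was hybridised to 2 two-colour arrays. On each array wild-type (WT) RNA carried the green dye Cy3, and RNA of cells whose genotype is labelled HDAC6 overexpression carried the red dye Cy5. Both cultures had been kept with leukaemia inhibitory factor on mitomycin C treated mouse embryonic fibroblasts, so both kinds of RNA may hold feeder RNA. The labels name no promoter, vector or clone for the overexpression. Neither array had the dyes swapped, so an effect of the dye and one of the genotype cannot be told apart.

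HDAC6 is a mainly cytoplasmic deacetylase best known for removing acetyl groups from alpha-tubulin. Much of the mammalian genome outside protein-coding genes is transcribed, in part into long noncoding RNAs, which are often present at low levels and often in few cell types. In embryonic stem cells such RNAs come from sites near active promoters and enhancers, and from imprinted domains, where clusters of noncoding RNAs are made from the chromosome of only one parent. A probe that carries only a genome interval reports RNA from that interval on one strand, without saying which transcript it belongs to.

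Neither tested probe of the targeted gene was called higher in the cells labelled as overexpressing it. One Hdac6 probe read 15400 in WT and 17500 in the labelled cells on replicate 1, and 16900 and 16800 on replicate 2. The other read 16400 and 18300, then 17800 and 17300. Their log2 ratios averaged 0.09 and 0.06 (limma, adjusted p = 0.523 and 0.672), and whether these probes lie in the introduced sequence is not given in the sources used here. The cells are therefore called OE-labelled below. All 10 ESC markers were above background in both kinds of RNA. Of these, 3 rose and 3 fell, between -1.11 for Tdgf1 and 1.5 for Tfcp2l1, with a median log2 ratio of 0.20. All 10 primitive endoderm markers rose in the OE-labelled cells (median 3.84), and Ttr among them was not well above background in WT. Of 14 fibroblast markers 13 rose and none fell, with medians of 0.92 and 1.49 on the arrays and all 14 above background in both kinds of RNA. The part of endoderm-like or feeder RNA in the results below was not tested, and in bulk RNA a change in the share of such cells and a change in RNA per cell cannot be told apart.

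Array coordinates follow the mouse build mm9, and a region is given with the strand mark of its name, F or R. Whether F and R mark the probe or the transcript is not stated in the files. The regions had a median length of 7557 bases, with quartiles of 795 and 22389, and a strand of a region carried 1 to 10 probes, with a median of 3. Of the 12661 probes 7749 (61.2%) were tested, that is, well above background in at least one channel on each array. They covered 2148 regions and 2823 region strands. The share tested was 79.5% of protein-coding gene probes and 57.9% of probes for annotated long noncoding RNA genes. Values are log2 ratios of processed signal, OE-labelled cells over WT, so that 1 is a 2-fold rise and -1 a 2-fold fall, and ± gives the SD over the 2 arrays. Which transcripts these regions belong to was not analysed here, because the gene table at hand follows another build.

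Most region probes changed little, and the larger changes went both ways. At an adjusted p under 0.05 (limma, moderated test over all 38472 tested probes), 2196 region probes were higher and 1232 lower in OE-labelled cells, 44.2% in all. The background over all tested probes was 45.5%, with 22.8% higher and 22.7% lower. Past 2-fold in the same direction on both arrays, 183 were higher (2.36%) and 195 lower (2.52%), against 2.72% and 3.54% of all tested probes and 6.26% in either direction. All 378 of these probes also passed limma, as did all 2410 such probes among all those tested. Passing limma therefore says nothing particular to region probes. With 2 arrays the fit has 1 residual degree of freedom, and the arrays lie on 1 slide. The labels call them biological replicates but do not show that their RNA came from separate cultures, so the p-values may measure a technical spread.

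**Figure D1:**
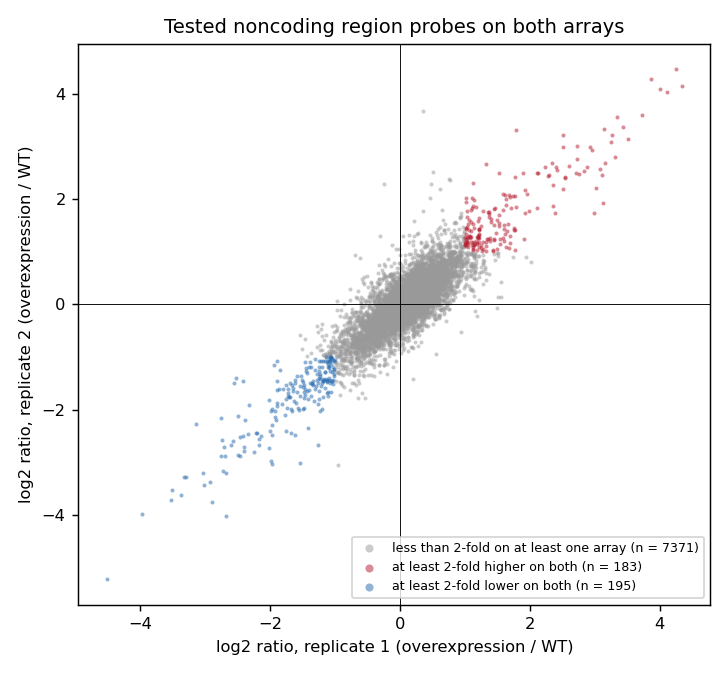
Log2 ratio of OE-labelled over WT signal of each of 7749 tested region probes on replicate 1 (x axis) and replicate 2 (y axis). The 183 red points are at least 2-fold higher and the 195 blue points at least 2-fold lower on both arrays. Most points lie close to 0.

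The arrays ordered the region probes alike. The 2 log2 ratios of a probe correlated at r = 0.87 over 7749 probes (Spearman's rho 0.80), which are not independent and share the same dye orientation. The ratios had the same sign in 81.3% of probes, and their mean ran from -4.87 to 4.36. The largest gap between arrays was in a probe of chr17:13220550-13236900 R, with 0.36 on replicate 1 and 3.67 on replicate 2 (adjusted p = 0.0629). A probe of chr5:14988715-14989311 F followed, with -0.24 and 2.29. In both cases only replicate 2 was past 2-fold.

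The median region probe lay slightly above 0, and above the protein-coding probes of its own chromosome. Region probes had a median log2 ratio of 0.15 on replicate 1 and 0.11 on replicate 2. Protein-coding gene probes had medians of -0.07 and -0.05, and all tested probes 0.02 and 0.01. The shift depends on the normalization: with another background correction (normexp) and median centring, the region median was 0.03. The share of called region probes that were higher then went from 64.1% to 51.9%. The direction of a small change in one region probe is therefore not firm, while the position of the region probes above the coding probes held at every brightness quartile with each of 3 normalizations.

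On each of the 16 chromosomes the median region probe was higher than the median coding probe. Chromosome 13 had the lowest region median, 0.05, and chromosome 14 the highest, 0.27 (0.27 on replicate 1 and 0.26 on replicate 2), followed by chromosome 16 with 0.25. The coding medians of the same chromosomes ran only from -0.09 to 8.4e-04. Over the 16 chromosomes together, 2.36% of region probes were at least 2-fold higher and 2.52% lower. Chromosome 14 had 19 higher (4.36%) and 1 lower among 436 tested, and chromosome 18 had 14 higher (4.73%) and 7 lower among 296. Chromosome 12 had 7 higher and 40 lower (7.55%) among 530, and chromosome 15 had 8 higher and 25 lower (6.44%) among 388. Of the 16 chromosomes 8 had more 2-fold higher than lower probes. For comparison, region medians were 0.35 on chromosome 1, -0.21 on chromosome 11, -0.005 on chromosome 8 and 0.16 on X, and the coding probes of chromosomes 1, 8 and 11 were displaced as well, at 0.25, -0.25 and -0.50.

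**Figure D2:**
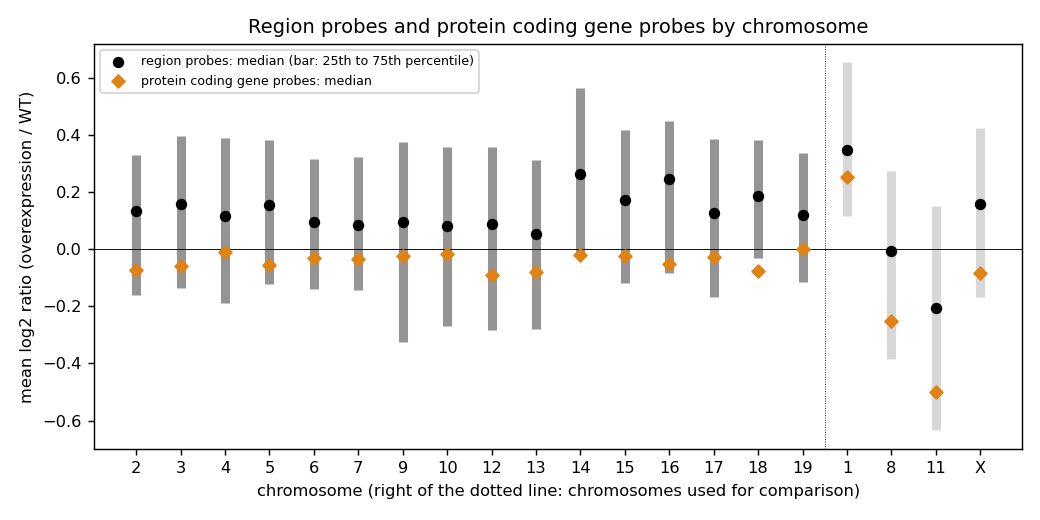
Mean log2 ratio over both arrays (y axis) by chromosome (x axis). Black points are medians of tested region probes with bars from the 25th to the 75th percentile, and diamonds are medians of protein-coding gene probes. The 16 region medians left of the dotted line lie between 0.05 and 0.27, each above the diamond of its chromosome.

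Region probes were dim. Of those tested, 41.2% fell in the dimmest quartile of all tested probes and 8.74% in the brightest. In the dimmest quartile 7.15% of region probes were past 2-fold on both arrays, against 16.7% of coding probes, and in the brightest quartile 0.591% against 1.58%. The difference was not tested. In the dimmest quartile its direction held with normexp and loess (1.16% against 4.10%) and with normexp and median centring (1.22% against 4.40%). In the brightest quartile it held with normexp and loess (0.886% against 1.67%). With normexp and median centring it reversed there: 10.8% of region probes passed 2-fold (73 higher, 0 lower) against 4.79% of coding probes. Of the 183 higher probes, 82 were not well above background in WT on either array, and of the 195 lower ones 50 were not well above background in OE-labelled cells. For such a probe only a bound on the fold is measured. It was computed on signals after normexp (offset 50), loess and a step equalising brightness between arrays. The floor was the 95th percentile of probes not above background on that scale. The bounds given below therefore do not follow from the processed signals printed beside them. The bound reached 2-fold for 3 of 186 region probes dim in WT and for 3 of 140 dim in OE-labelled cells. With the lowest signal of any probe well above background as the floor, these counts were 9 and 10.

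Several probes of one region strand give a check that a lone probe does not, although they share their RNA and are no replicates. Of 1905 region strands with 2 or more tested probes, 10 had every probe at least 2-fold higher on both arrays (0.525%, against 0.53% of such region strands on all chromosomes) and 24 had every probe at least 2-fold lower (1.26%, against 1.18%). The 10 higher ones hold 32 probes on 9 chromosomes and the 24 lower ones 79 probes on 13. In 5 of the 10 and 15 of the 24, every probe was well above background in both channels of both arrays. In 890 region strands (46.7%) all probes had the same sign on both arrays. The SD over the probes of a region strand had a median of 0.18, against a median SD between arrays of 0.12 for the same values, and the means of region strands had an SD of 0.54. With normexp and loess the counts became 3 and 11, all of them among the 10 and 24. With normexp and median centring they became 6 and 13, of which 2 and 13 were among them.

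**Figure D3:**
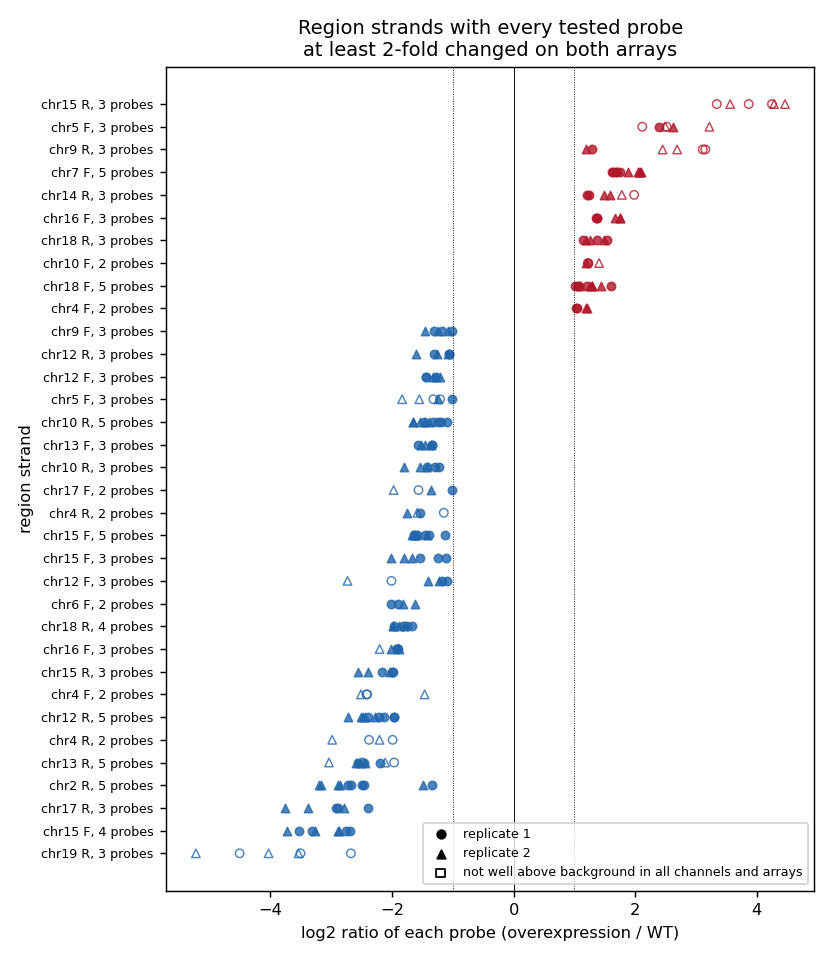
Log2 ratio of every tested probe (x axis) in the 34 region strands (y axis, labelled by chromosome and strand mark) whose probes were all at least 2-fold changed on both arrays. Circles are replicate 1 and triangles replicate 2, open where a probe was not well above background in every channel and array. The 10 higher region strands are red and the 24 lower ones blue, and the dotted lines mark 2-fold.

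Among the region strands that rose, the one best measured was chr7:91558475-91733625 F, a region of 175151 bases. Its 5 tested probes read 924 to 1630 in WT and 2830 to 6840 in OE-labelled cells, with no overlap between them. Their mean log2 ratios lay between 1.76 and 1.91, and the region strand averaged 1.85 ± 0.25, a 3.6-fold rise in which all 5 probes passed limma (adjusted p at most 7.0e-04). The R strand of the same region had 5 tested probes that also rose, by 1.21 on average, 4 of them past 2-fold. chr16:23534663-23535172 F, a region of 510 bases, had 3 probes at 135, 257 and 186 in WT and 347, 657 and 481 in OE-labelled cells on replicate 1. On replicate 2 they read 191, 350 and 230 against 607, 1180 and 774. The 3 probes differed by little (1.52 to 1.56), and the region strand averaged 1.54 ± 0.25.

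A pair of nearby regions on chromosome 18 also rose. The 5 probes of chr18:61798876-61807452 F read 93.1 to 445 in WT and 282 to 922 in OE-labelled cells on replicate 1, and 159 to 603 against 388 to 1280 on replicate 2. These ranges overlap because probes differ in brightness, but each probe rose by 2.1 to 2.86-fold, with a mean log2 ratio of 1.23 ± 0.06. Its R strand averaged 0.25 over 5 probes. chr18:61809278-61825191 R, which starts within 2 kb of the end of the first, averaged 1.33 ± 0.02 over 3 probes. Of the regions within 100 kb, chr18:61799195-61807139 F, which lies inside the first, had 1 probe at 0.81, and those further off lay between 0.14 and 0.49. At chr4:127020290-127020504 F, a region of 215 bases, both probes rose, from 665 and 1200 to 1360 and 2470 on replicate 1 and from 719 and 1310 to 1640 and 3020 on replicate 2, a mean of 1.12 ± 0.11. With normexp and median centring that mean was 0.92.

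The other 5 region strands with every probe 2-fold higher include probes that were not above background in WT. chr15:59619971-59626514 R had the largest mean, 3.96 ± 0.20. Its 3 probes read 8.04, 9.73 and 11.8 in WT and 81.5, 142 and 224 in OE-labelled cells on replicate 1, and 9.08, 11 and 12.2 against 107, 215 and 269 on replicate 2. All WT values lay below the background mark, so the probes rose at least 1.44-fold, 1.95-fold and 2.94-fold, and with normexp and loess the mean was 1.66. chr5:15176325-15223375 F averaged 2.56 ± 0.31. Its probe measured in both channels on both arrays read 90.2 and 76.5 in WT and 476 and 469 in OE-labelled cells, a rise of 2.51 (5.68-fold). At chr9:40268246-40268441 R the fully measured probe rose by 1.23, and the other two, dim in WT, rose at least 1.89-fold and 1.23-fold. chr14:76912477-76931702 R averaged 1.55 ± 0.10, and its probe well measured at 1470 and 1650 in WT reached 3490 and 4640. chr10:78969674-78981039 F averaged 1.26 ± 0.05 over 2 probes.

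The largest falls on well-measured probes exceeded the largest such rises. At chr15:96984422-97000322 F the 4 tested probes read 809 to 6170 in WT and 81.2 to 911 in OE-labelled cells on replicate 1, and 761 to 6530 against 78.7 to 881 on replicate 2. Every probe fell by 6.87 to 12.3-fold, and the mean log2 ratio was -3.13 ± 0.08. On the R strand of this region a probe fell from 1430 and 1370 to 90.7 and 86.4, and another from 2650 and 2620 to 325 and 283. The third R probe was dim in OE-labelled cells and had a log2 ratio of -0.76. chr17:15368546-15377747 R fell by 3.02 ± 0.40 on the log2 scale over 3 probes, from 664 to 878 in WT to 88.1 to 166 in OE-labelled cells on replicate 1, and from 706 to 945 to 54.9 to 137 on replicate 2. It lies inside chr17:15357376-15385701, whose F strand also had both tested probes past 2-fold, with a mean of -1.48. The R strand of that larger region averaged -0.68 over 4 probes, of which 2 were past 2-fold lower and the highest stood at 0.72.

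chr2:94082835-94101939 fell on both strands. Its 5 R probes read 736 to 1330 in WT and 115 to 508 in OE-labelled cells on replicate 1, and 641 to 1260 against 69.4 to 405 on replicate 2, with no overlap. The R mean was -2.53 ± 0.27 and the F mean, over 5 probes, -2.18 ± 0.47. One F probe differed between arrays, with -0.95 and -3.05. chr12:74135916-74142780 R fell by 2.31 ± 0.24 on the log2 scale over 5 probes, from 617 to 1820 in WT to 157 to 464 on replicate 1 and from 650 to 2110 to 117 to 433 on replicate 2. chr15:3230734-3251196 R had 3 probes at 459 to 679 in WT and 99 to 166 in OE-labelled cells over both arrays, a mean of -2.19 ± 0.20.

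At chr13:98571741-98603323 R all 5 probes fell, with a mean of -2.44 ± 0.15. Its 3 probes measured throughout read 843, 1460 and 1160 in WT and 142, 265 and 254 in OE-labelled cells on replicate 1, and 938, 1700 and 1200 against 156, 297 and 221 on replicate 2. The F strand averaged -1.53 over 5 probes. The lowest mean of any region strand, -3.91 ± 0.50, was at chr19:16090063-16103160 R. Its 3 probes read 276, 324 and 512 in WT on replicate 1 and 330, 329 and 493 on replicate 2. In OE-labelled cells the first 2 were not above background on either array, and they fell at least 3.41-fold and 2.95-fold. The third fell from 512 to 80.1 on replicate 1 and from 493 to 30.2, not above background, on replicate 2. chr16:17833211-17835112 F averaged -1.97 ± 0.09 over 3 probes. Both probes of chr4:88745770-88774130 R and of chr4:3169583-3180017 F were dim in OE-labelled cells, and their bounds lay between 1.17-fold and 1.47-fold.

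Of 675 regions with tested probes on both strands, 8 had means past 2-fold lower for both strands on both arrays, and 1 had both higher. None was past 2-fold higher on one strand and past 2-fold lower on the other. The 8 include the regions on chromosomes 15, 2 and 13 above. chr6:57583950-57624216 had means of -1.84 on F and -1.24 on R. chr18:69923410-69965360 had -1.46 and -1.86, and chr4:82979473-83035023 had -1.17 and -1.50. Both F probes of the chromosome 4 region were dim in OE-labelled cells, with bounds of only 1.33-fold and 1.15-fold. The other two lie on chromosome 12, in the stretch described below. The region that rose on both strands was chr13:73472571-73483846, with 1.27 on F over 6 probes and 1.54 on R over 3. Its F probe with the brightest WT reading on replicate 1 went from 2220 and 2700 to 4860 and 5510. On R a probe went from 178 and 153 to 836 and 939, another from 152 and 115 to 521 and 615, and the third had a log2 ratio of 0.10.

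Where changed regions lay close together, the chromosome 12 stretch from 110738120 to 110988678 held the most, a stretch singled out after the values were seen. It holds 17 tested region strands, of which 14 had a mean below 0 and 3 above. Of its 55 probes 23 were at least 2-fold lower on both arrays and 1 was higher, so that 17 of the 40 lower probes of chromosome 12 lay elsewhere. The median region strand of the stretch was at -0.97 on replicate 1 and -0.93 on replicate 2. With normexp and loess 14 of the 17 were again below 0, at a median of -0.62, and 12 probes were past 2-fold.

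**Figure D4:**
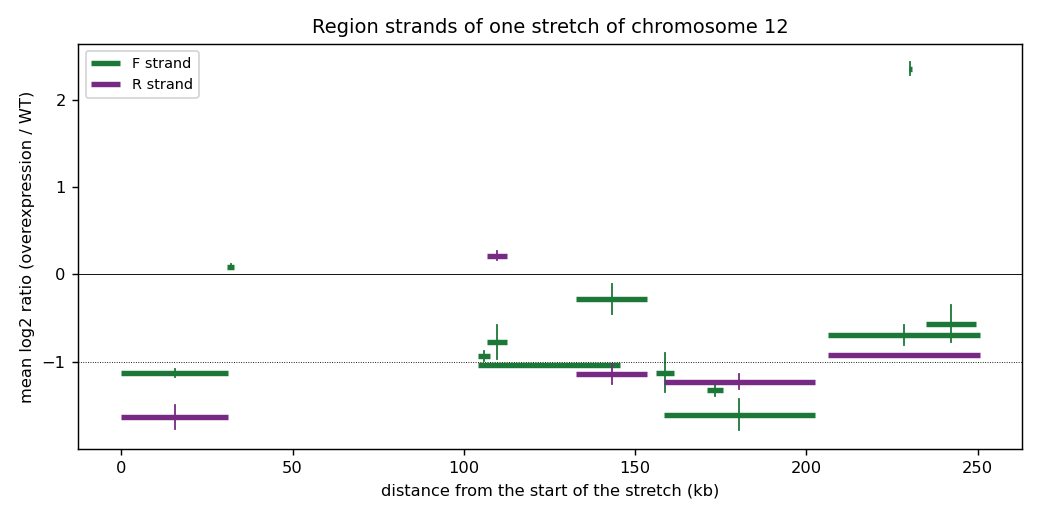
Mean log2 ratio (y axis) of the 17 tested region strands of the chromosome 12 stretch against the distance from its start in kb (x axis). Horizontal bars span each region, green for F and purple for R, and vertical lines join the values of the 2 arrays. Of the 17, 14 lie below 0, and the bar near the top is a lone probe that was not above background in WT.

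The brightest probe of this stretch in WT belongs to chr12:110894095-110899517 F. The 2 probes of that region strand read 10400 and 5580 in WT and 3860 and 2310 in OE-labelled cells on replicate 1, and 10800 and 5520 against 5440 and 3160 on replicate 2, a mean of -1.13 ± 0.32. chr12:110909258-110913909 F had 3 probes at 1350, 1870 and 4760 in WT and 494, 684 and 1960 in OE-labelled cells on replicate 1. On replicate 2 they read 1340, 1820 and 5510 against 557, 781 and 2210. All 3 fell, and the mean was -1.33 ± 0.09. Both strands of chr12:110896603-110940553 fell with every probe, with means of -1.61 on F and -1.23 on R. The next region, chr12:110944403-110988678, had 9 F probes at a mean of -0.70 and 6 R probes at -0.92.

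The fall did not extend to every region strand of the stretch. chr12:110769101-110771113 F had 2 probes with a mean of 0.09, and chr12:110845020-110850870 R had 2 with 0.22, while its F strand averaged -0.77. The third exception, chr12:110967974-110969051 F, had 1 tested probe at 2.36, with WT at 10.5 and 9.64 and OE-labelled cells at 51.3 and 52.0. It was not above background in WT, and its bound was 1.18-fold. Of 16 tested genes on a list of annotated long noncoding RNAs, 9 rose and 2 fell, with a median of 0.35. The list does not stand for such genes in general. Of all 327 tested probes for annotated long noncoding RNA genes, 27.2% were called higher and 24.2% lower, with a median of 0.02. The 2 genes of the list that fell were Meg3 and Mirg, maternally expressed noncoding genes of an imprinted cluster that the RefSeq table places on chromosome 12. Meg3 had a log2 ratio of -0.85 ± 0.13 (adjusted p = 0.00263) and Mirg of -0.98 ± 0.04 (adjusted p = 0.00156), and the other 2 Meg3 probes stood at -0.91 and -0.65. Of the other tested genes that the table lists between them, 6430411K18Rik stood at -0.78 (adjusted p = 0.00473) and Rtl1 at -0.17 (adjusted p = 0.241). Whether the regions overlap these genes was not determined, since the table follows build GRCm38.

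Other groups of nearby regions were smaller, and were also singled out after their values were seen. The chromosome 15 stretch from 92174226 to 92208534 had 4 region strands, all lower, with 12 of 14 probes past 2-fold. In chr15:92174226-92201201 F, 5 probes fell from 499 to 1640 in WT to 190 to 745 on replicate 1, a mean of -1.52 ± 0.10 over both arrays. The 5 R probes of the same region averaged -1.09, and chr15:92197603-92208534 F averaged -1.56 over 3. The chromosome 10 stretch from 24269165 to 24276690 had 3 region strands, all lower, with means between -1.45 and -0.91. These intervals overlap, so their probes may read the same RNA. In the chromosome 2 stretch from 75444518 to 75497268 the direction varied. There chr2:75444518-75497268 R averaged 1.11 over 6 probes and its F strand -0.29 over 4, while chr2:75492010-75492464 F, inside it, averaged -0.96.

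Across all 16 chromosomes, overlapping regions shared part of their change. Over 769 pairs of overlapping region strands of the same mark, the mean log2 ratios correlated at r = 0.39, and over 347 pairs up to 20 kb apart at 0.38. At 20 to 100 kb r was 0.13 (549 pairs), and from 500 kb to 1 Mb it was 0.01 (1468 pairs). For pairs of opposite mark the values were 0.37, 0.29, 0.13 and 0.00. The pairs share arrays and regions, and overlapping pairs can share RNA.

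The strands of a region mostly moved alike, but in part of the regions their difference passed the test. The F minus R difference passed an adjusted p of 0.05 (limma over 865 regions of all chromosomes) in 156 of 675 regions, 23.1%, against 24.0% of the 865. F was the higher strand in 104 of these and R in 52. The strand means had opposite signs in 76 of the 156, and in 14 regions the difference was at least 1 on both arrays. F and R means correlated at r = 0.62 (rho 0.58) over the 675 regions, which share arrays, and 74.8% had the same sign. The count of calls moved with the settings. It was 259 with normexp and loess, 194 of 620 regions where probes had to be above background in both channels, and 12 of 837 without the brightness filter.

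**Figure D5:**
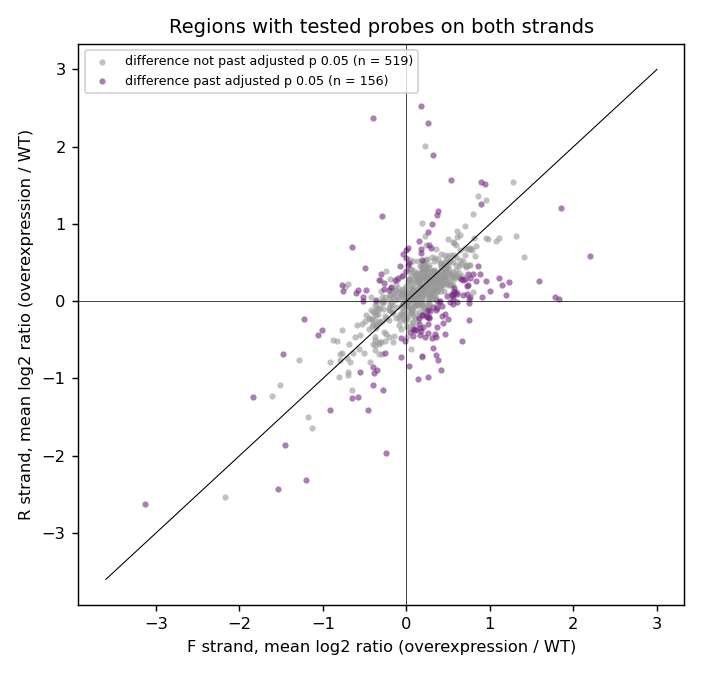
Mean log2 ratio of the F strand (x axis) against that of the R strand (y axis) in 675 regions with tested probes on both strands. Purple marks the 156 regions whose difference passed an adjusted p of 0.05, and the line marks equal values. Most regions lie near the line, and the purple points farthest above it have R means above 1.5.

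In each of the 6 regions with the largest strand difference among those past the test, the strand that changed had at least 1 probe dim in one kind of RNA. At chr13:23517278-23523756 the lone R probe read 32.5 and 29.6 in WT, below the background mark, and 160 and 162 in OE-labelled cells, while the 5 F probes averaged -0.40. The difference was -2.77 ± 0.13 (adjusted p = 0.00267), and the bound on the R probe was 1.92-fold. At chr15:79276925-79286500 the difference was -2.06 ± 0.20 (adjusted p = 0.00676), carried by 1 R probe at 4.25 beside another at 0.37. The remaining 4 were chr13:95613081-95640256 (-2.35), chr2:108456668-108532418 (1.80), chr18:46646048-46659873 (1.72) and chr7:111526943-111545093 (1.71). The bounds on their changed probes ran from 1.11-fold to 1.72-fold. At chr13:98571741-98603323 the mean fell 0.90 further on R than on F (adjusted p = 0.0154), but its 2 bright F probes stood at -2.71 and -2.64, below every R probe, and the other 3 F probes between -1.13 and -0.40.

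Ranked by the mean of a region strand, most of the largest rises came from lone dim probes. The highest single probe, at 4.36, belonged to chr15:59619971-59626514 R, which had 3 tested probes. Besides chr15:59619971-59626514 R and chr5:15176325-15223375 F, the 12 highest region strands each had 1 tested probe, and none of these 10 probes was above background in WT on either array. chr2:50917152-50917519 F read 8.82 and 9.58 in WT and 153 and 157 in OE-labelled cells, a log2 ratio of 4.07 ± 0.06 and a rise of at least 1.92-fold. chr18:36480559-36481146 R read 8.52 and 9.50 against 137 and 162, a ratio of 4.05 ± 0.06 and at least 1.76-fold. The other 8 had ratios between 2.63 and 3.67 and bounds between 1.07-fold and 1.71-fold: chr9:46894029-46973977 R, chr3:126969590-126972626 R, chr13:28067341-28067814 F, chr3:125563727-125564266 F, chr6:145687212-145694793 R, chr6:121036929-121037581 R, chr9:95295459-95301266 F and chr10:92550314-92577555 F. The region strand chr10:92550314-92577555 F overlaps chr10:92547995-92556102 F, whose 1 tested probe went the other way, at -1.55 ± 0.26. Among the 12 lowest, only chr15:33983510-33985015 F rested on 1 probe, which read 64.5 and 69.9 in WT and 22.3 and 8.65 in OE-labelled cells. Its 2 arrays gave -1.54 and -3.02.

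Among all changed region strands, lone probes were again more frequent on the higher than on the lower side. Of all 2823 tested region strands, 918 had a single tested probe, a larger share than on either side. Of 139 region strands with at least 1 probe past 2-fold higher, 29 had a single tested probe and 85 had only 1 such probe of several, and 10 had all. Of 106 with at least 1 probe past 2-fold lower, the counts were 10, 53 and 24. Probes in opposite directions past 2-fold occurred in 3 region strands. In chr12:74135916-74142780 F, 4 of 6 probes fell, to log2 ratios between -3.23 and -1.72, and 1, dim in WT, stood at 1.61. In chr17:3198868-3394643 F, 1 of 9 probes fell by 1.05 and another, dim in WT, stood at 2.75. In chr9:88581073-88614403 R, the 2 probes stood at -1.17 and 1.60, the first dim in OE-labelled cells and the second in WT. The region strand with the most tested probes, chr10:62347876-62374346 F, had 10, with means from -0.19 to 0.48. It averaged 0.33 on replicate 1 and -0.06 on replicate 2, and 1 of the 10 passed limma.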

How the data were processed

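The authors used Agilent Feature Extraction 11.5.1.1 per the file headers (the submitters' processing notes name it too), and each array has 62976 spots. Its processed intensity values, deposited for each channel, already had background removed and the dyes balanced by a linear and lowess step. The deposited series table holds log2 ratios of WT over OE-labelled signal, as its correlation of -1.0000 with the scanner log2 ratios on both arrays shows; whether further centring was applied is not given in the sources used here.

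Control and outlier-marked spots were left out (269 and 313 outlier-marked, no spot saturated) and spots of one probe averaged. Ratios of the processed signals were fitted in limma 3.58.1 (R 4.3.3) with an intercept alone over 38472 tested probes, with Benjamini-Hochberg adjustment, and the strand difference over 865 regions. The fits were tested on simulated data, where false calls of the probe fit ran somewhat above the nominal share. The simulation changed few probes, with noise independent between probes and arrays, so it cannot give the error rate of these data. Bounds used means over arrays of log2 signals after normexp, loess and a step equalising brightness between arrays, not the processed signals. Region strands named are the 12 highest and 12 lowest with a probe past both criteria, up to 10 per direction with all of 2 or more probes past 2-fold, the 6 largest strand differences and the one with most probes. Members, lists and rules were chosen with earlier results of these data known. Alternatives were 2 other normalizations, centring, the series table, other filters, folds, tests and units, and leaving out an array; normexp used an offset of 50. The stretches, and the settings tried on them and on region strands whose probes all agree, were chosen after seeing the data. The number of arrays limits the precision. Probe sequences were not used here.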

Additional observations from a re-analysis of the deposited data

How the results depend on the processing

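Each array holds both kinds of RNA, so its ratio is already a paired comparison and is the unit of the fit. The cause of each change below was not tested. Of the 7749 region probes, 378 were past 2-fold on both arrays (183 higher, 195 lower). The count was 140 (43 and 97) with normexp and loess, 1.81% against 3.20% of all tested probes. With normexp and median centring it was 218 (104 and 114), 2.81% against 4.76%. Where both channels had to be above background it was 224, with 87 higher, 3.18% against 4.61%. Without a brightness filter it was 591, with 316 higher, 4.67% against 5.78%. Counting 1 value for each region strand gave 125 (64 and 61), a 1.5-fold limit 1168 (656 and 512) and a 3-fold limit 134 (61 and 73). On 1 array alone the counts ran from 521 to 630 in all, from 279 to 313 higher and from 242 to 317 lower. limma called 2196 higher and 1232 lower probes. A test against a 1.5-fold change called 433 (214 and 219), 5.59% against 7.18% of all tested probes. With 1 value for each region strand, limma called 1277 (857 and 420).

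The median log2 ratio was 0.0734 with normexp and loess, 0.0286 with normexp and median centring and 0.0247 without the filter. With normexp and loess 2151 probes were called higher and 1383 lower, and with normexp and median centring 1801 and 1666. Called shares were 45.6% against 51.6% of all tested probes, 44.7% against 54.7%, and 27.9% against 30.0% without the filter. Strand differences numbered 259, 249 and 12 under these 3 settings. The spread over probes of a region strand, 0.18, was 0.14 with either normexp setting, 0.16 with both channels above background, 0.23 without the filter and 0.19 on replicate 2. Outlier-marked spots, the series table and the trend test kept each count within 1.5 times. Named region strands had ratios at a median of 0.507 times the main value with normexp and loess and 0.461 times with normexp and median centring. Only values near 0 changed sign. chr13:95613081-95640256 F took -0.0176 and -0.0503 under these settings and from -0.0474 to 0.399 on 1 array, and chr2:108456668-108532418 R took -0.0133 and -0.0719. chr18:46646048-46659873 R took -0.0535 and -0.0919, -0.556 without the filter and from -0.0649 to 0.174 on 1 array. chr10:62347876-62374346 F took -0.0236 with normexp and median centring and from -0.064 to 0.327 on 1 array. The bound reached 2-fold in 6 probes, or in 19 with the lower floor.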
